A study of Mus musculus with 6 samples.

Results

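Svep1 and Fbln2, both genes of the extracellular matrix, were the hosts of 8 of the 3869 circular RNAs (circRNAs) listed for differentiating mouse brown preadipocytes, 4 from each gene. A circRNA is a closed loop formed when the end of an exon is spliced back to the start of an earlier or the same exon, and it is counted by the reads that cross this back-splice junction. The members were taken by position: every listed circRNA lying wholly within the region of Svep1 on the minus strand of chromosome 4 or that of Fbln2 on the plus strand of chromosome 6. Coordinates are those of the table, on mm9, with starts counted from 1. No other listed circRNA overlapped either region in part. The 2 genes themselves were chosen from measured values. Svep1 was picked for its most abundant circRNA, higher on day 4 than on day 0, and Fbln2 for circRNAs that differed between day 8 and day 0. Those differences are therefore given below as descriptions without a test, and only comparisons that did not lead to the choice were tested.

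Stromal vascular cells were taken from what the labels call inguinal BAT of C57BL/6 mice aged 6 weeks and grown in serum-containing medium. Day 0 cells were proliferating and untreated, day 4 cells had spent 4 days with insulin, dexamethasone and isobutylmethylxanthine, and day 8 cells had spent a further 4 days with insulin and the thyroid hormone T3. Each day had 2 libraries, made from total RNA after removal of ribosomal and linear RNA, and the labels leave unsaid whether the libraries of a day represent different animals or dishes, so p-values measure the spread between these libraries, which may be technical. Whether the cells carried the defining markers of brown adipocytes was not analysed here, since the table holds back-splice reads without gene names. In such bulk samples, fewer cells of a type and less RNA per cell cannot be told apart.

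Svep1 encodes a large secreted protein, also named polydom, built of a von Willebrand factor A domain, many sushi and EGF-like modules and a pentraxin domain. It binds an integrin and is needed for the remodelling of lymphatic vessels in mice. Fbln2 encodes fibulin-2, a secreted glycoprotein with a run of calcium-binding EGF-like modules that binds fibronectin, fibrillin and laminins in basement membranes and elastic fibres. Preadipocytes are fibroblast-like cells that make much matrix, and this matrix is rebuilt as they round up and fill with lipid. The linear mRNA of either gene was not measured, so nothing below speaks of the amount of either protein.

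Each member enclosed whole exons. The genomic distance between its joined ends equalled, to the base, the distance between the outer borders of exactly 1 pair of exons of its host in GENCODE M21, out of 1176 pairs in the 48-exon Svep1 transcript and 171 pairs in the 18-exon Fbln2 transcript. The members of a gene also lay at the same distances from each other as these exons did. GENCODE M21 is on GRCm38 and the table on mm9, so only distances were compared and no coordinate was carried over. The Svep1 members enclosed exons 2 to 3 (chr4:58188803-58192579), exons 18 to 21 (chr4:58119167-58124332), exons 22 to 24 (chr4:58112815-58117423) and exons 33 to 34 (chr4:58097387-58097858). These Svep1 blocks shared no exon, although the block that ended with exon 21 was followed directly by the block that began with exon 22. The Fbln2 members enclosed exon 2 alone (chr6:91183057-91184345), exons 3 to 8 (chr6:91200852-91207820), exons 3 to 5 (chr6:91200852-91204615) and exons 4 to 5 (chr6:91202438-91204615). The last 3 overlapped, and each shared an end with another of them.

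All enclosed exons were coding, apart from 13 bases before the start codon in the 1289-base exon 2 of Fbln2. If the introns inside a circle are removed, the Svep1 circles would be 433, 513, 430 and 262 bases long in the order of their exons, and the Fbln2 circles of exons 3 to 8, 3 to 5 and 4 to 5 would be 849, 423 and 311 bases long. Their genomic spans ran from 472 to 6969 bp, all below the median of 7871 bp over the table. Of the 8 members, 1 carried an identifier of the circRNA catalogue circBase (mmu_circ_0011707, the Svep1 circle of exons 2 to 3), against 63.1% of all listed circRNAs.

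**Figure D1:**
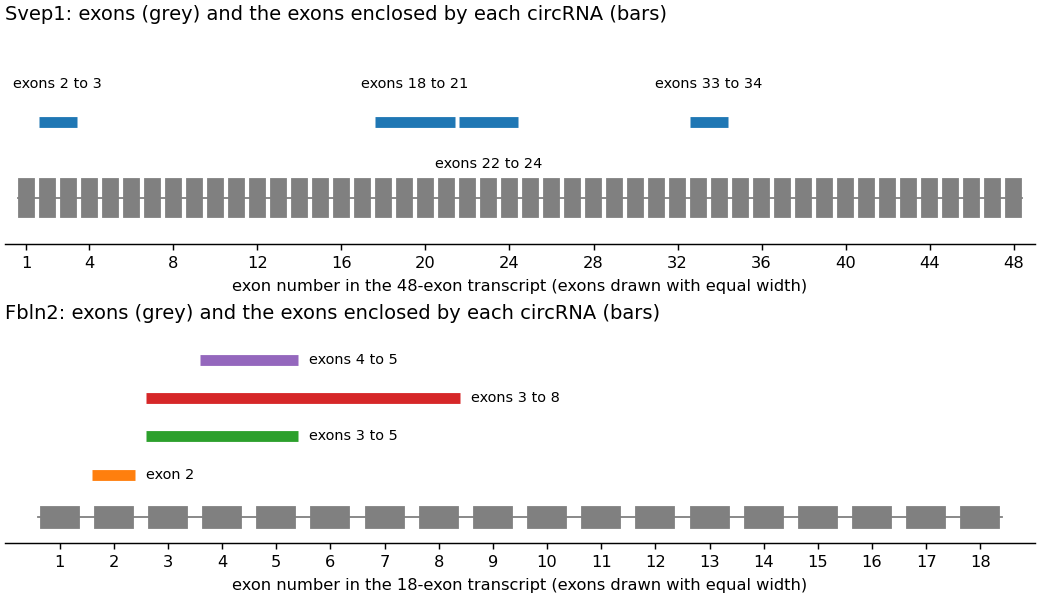
Exons of the Svep1 transcript (48 exons) and the Fbln2 transcript (18 exons) by exon number on the horizontal axis, drawn with equal width, and the exons enclosed by each circRNA as coloured bars. The 4 Svep1 bars lie apart from each other, while 3 of the 4 Fbln2 bars overlap over exons 4 and 5.

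The back-splice junctions of the most abundant member and of the 3 overlapping Fbln2 members are shown because these junctions are what was counted. They were assembled from the GENCODE M21 transcripts as the last 20 bases of the last enclosed exon, in lower case, followed by the first 20 bases of the first enclosed exon, in capitals, and they run 5′ to 3′ on the strand of the gene.
Svep1 exons 2 to 3: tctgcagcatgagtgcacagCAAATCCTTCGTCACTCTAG
Fbln2 exons 3 to 8: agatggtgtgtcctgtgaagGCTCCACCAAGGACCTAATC
Fbln2 exons 3 to 5: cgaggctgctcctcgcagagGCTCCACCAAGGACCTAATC
Fbln2 exons 4 to 5: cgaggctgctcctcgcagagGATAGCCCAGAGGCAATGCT
The Fbln2 circles of exons 3 to 8 and 3 to 5 share the bases in capitals, the start of exon 3. The circles of exons 3 to 5 and 4 to 5 share the bases in lower case, the end of exon 5.

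Levels are given as CPM, the back-splice reads of a circRNA scaled to a library total of 1000000 over all listed circRNAs. They are thus relative to the other listed circRNAs, and a higher value on a day need not mean more molecules per cell. Values came in whole steps, taken as reads, and the libraries held 40384 to 45733 such reads, so that 1 read was worth 21.9 to 24.8 CPM. The smallest non-zero value was 2 reads, and a circRNA listed at 0 may have had 1. Of the 8 members, 5 passed a read filter of 10 or more reads in 2 or more libraries: the Svep1 circles of exons 2 to 3, 18 to 21 and 22 to 24, and the Fbln2 circles of exon 2 and of exons 3 to 8. The same number, 5, were above 0 in all 6 libraries, with the Svep1 circle of exons 33 to 34 in place of the Fbln2 circle of exons 3 to 8. Every circRNA of the table was detected in the 2 libraries of some day, a selection that inflates differences of circRNAs with few reads. Days were compared with limma over the whole table on log2(CPM + 43.7), after scaling by TMM factors of 0.965 to 1.06, a scale that understates the change of circRNAs near 43.7 CPM, the smallest non-zero value. Called means a limma adjusted p under 0.05. Statements below that the libraries of days lie apart, or do not overlap, are descriptions. The share of all circRNAs or loci with such separation was not counted. Even full separation of 2 days gives an exact two-sided permutation p of 0.333.

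The Svep1 circle of exons 2 to 3 was among the most abundant circRNAs of these cells on each day. It had 7611 and 7869 CPM on day 0, 13798 and 13743 CPM on day 4, and 10877 and 9996 CPM on day 8. The 2 libraries of each day lay apart from those of the other days, with day 4 highest and day 0 lowest. By mean CPM it ranked 6th of 3869 on day 0, 3rd on day 4 and 4th on day 8. Its mean on day 4 was 1.78 times that on day 0, a log2 fold change of 0.89 (SE 0.14) in the limma fit, which is a description since this difference chose the gene.

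The later part of its course was tested. On day 8 the circle of exons 2 to 3 averaged 10437 ± 623 CPM, against 7740 ± 183 CPM on day 0 (SD, n = 2 each), a log2 fold change of 0.53 (SE 0.14) that was not called by limma with Benjamini-Hochberg adjustment over all 3869 circRNAs (adjusted p = 0.0786). It was called with a pseudocount of 1 CPM (limma adjusted p = 0.0382) or 0.1 CPM (0.0174) and among circRNAs that passed the read filter (0.0480), and over all alternatives the adjusted p ran from 0.0174 to 0.448. Against day 4, at 13770 ± 38.5 CPM, the day 8 level differed by a log2 fold change of -0.36 (SE 0.14, limma adjusted p = 0.228). Both tests share libraries with the comparison that chose the gene.

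The other Svep1 circles were scarcer and did not follow the same order of days. The circle of exons 22 to 24 had 487 and 1332 CPM on day 0, 809 and 718 CPM on day 4, and 759 and 1066 CPM on day 8. Its day 0 libraries, with 21 and 55 reads, enclosed the values of all other libraries. Exons 18 to 21 formed a circle with 464 and 581 CPM on day 0, 175 and 347 CPM on day 4, and 343 and 663 CPM on day 8. Its day 4 libraries lay below both day 0 libraries, the reverse of the circle of exons 2 to 3, while day 8 overlapped both earlier days. Exons 33 to 34 gave a circle near the lower limit of the table, with 2 to 9 reads in each library and 70.6 ± 31.4 CPM on day 0, 59.0 ± 21.6 CPM on day 4 and 143 ± 98.8 CPM on day 8 (SD, n = 2).

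None of these 3 circles was called in the comparisons tested. For day 8 against day 4 the log2 fold changes were 0.88 (SE 0.45) for exons 18 to 21, 0.27 (SE 0.49) for exons 22 to 24 and 0.81 (SE 0.74) for exons 33 to 34, with limma adjusted p of 0.348, 0.822 and 0.596. For day 8 against day 0 they were -0.01, 0.24 and 0.70, with limma adjusted p of 1, 0.819 and 0.616. Thus 0 of the 4 Svep1 circRNAs were called in either comparison, against 12.4% of all 3869 when day 8 was set against day 0 and 9.64% when it was set against day 4. At an unadjusted limma p under 0.05 there was 1 of 4 in each, the circle of exons 2 to 3, beside 25.4% of all circRNAs when day 8 was set against day 0 and 22% when it was set against day 4, and no count model was run. The median log2 fold change of the 4 was 0.38 for day 8 against day 0, beside 0.05 over all circRNAs. Against day 4 it was 0.54, beside 0.06 over all circRNAs.

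**Figure D2:**
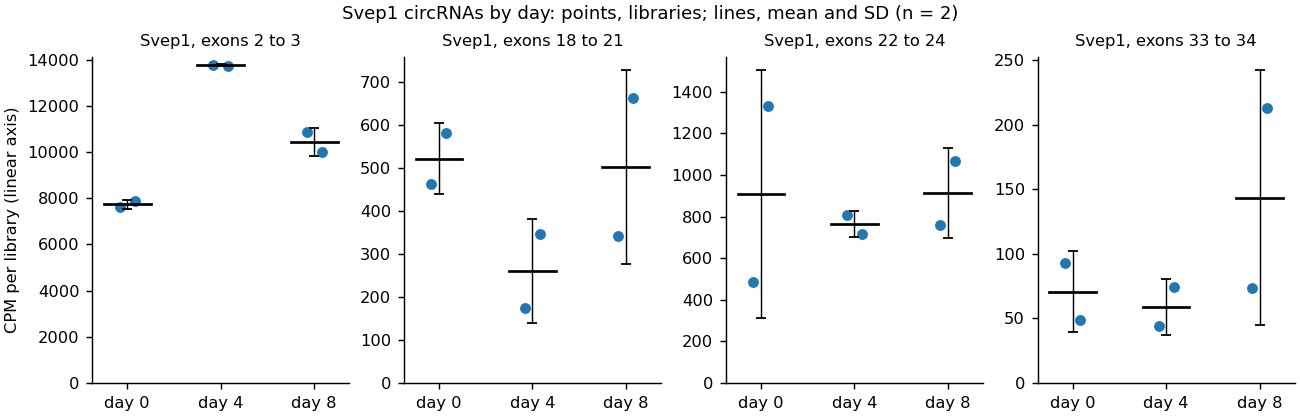
CPM of the 4 Svep1 circRNAs in each library (points) by day on the horizontal axis, with the mean and SD of 2 libraries as lines, on linear vertical axes that differ between panels. The circle of exons 2 to 3 is highest on day 4 in both libraries, while the libraries of the other circles overlap between days, apart from the circle of exons 18 to 21 on days 0 and 4.

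Summed over its 4 circles, Svep1 had 8655 and 9831 CPM on day 0, 14825 and 14882 CPM on day 4, and 12053 and 11939 CPM on day 8. The days did not overlap, and their order was that of the leading circle. The sum amounted to 0.924% of all listed back-splice reads on day 0, 1.49% on day 4 and 1.20% on day 8. For the test of sums, circRNAs of other genes were merged where they overlapped in 1 direction of transcription, which gave 2507 loci with the 2 hosts. The Svep1 sum ranked 7th of these on day 0, 3rd on day 4 and 4th on day 8. On day 8 it averaged 11996 ± 80.8 CPM, against 9243 ± 832 CPM on day 0 (SD, n = 2 each), a log2 fold change of 0.48 (SE 0.13, limma adjusted p = 0.0755 over the loci), and it was called when loci with few reads were left out (limma adjusted p = 0.0492). The range of the adjusted p over all alternatives was 0.0492 to 0.822. Day 8 against day 4 gave -0.26 (SE 0.13, limma adjusted p = 0.325), and 0.51 without the leading circle. Both tests of the sum share libraries with the comparison that chose the gene. Of all loci, 13.4% were called when day 8 was set against day 0, and 9.97% when it was set against day 4.

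The higher sum of day 4 lay in the circle of exons 2 to 3, which held 87.9% and 80.0% of the Svep1 sum on day 0, 93.1% and 92.3% on day 4, and 90.2% and 83.7% on day 8. The day 4 libraries were the highest and the days 0 and 8 overlapped. The other 3 circles together averaged 1503 ± 649 CPM on day 0, 1083 ± 78.7 CPM on day 4 and 1559 ± 542 CPM on day 8 (SD, n = 2), a log2 fold change of -0.34 for day 4 against day 0, where the whole sum gave 0.74. The shares were not tested, since the smallest p of an exact two-sided permutation test between days with 2 libraries each is 0.333. The higher level of the circle of exons 2 to 3 on day 4 than on day 0 also chose the gene. Its higher share on day 4 than on day 0 is therefore a description.

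Fbln2 gave far fewer circRNA reads than Svep1, and its sum was highest before induction. The sum of the 4 circles was 1114 and 1090 CPM on day 0, 525 and 322 CPM on day 4, and 343 and 426 CPM on day 8. Both later days lay below day 0 in every library, and they overlapped each other. The mean on day 8 was 0.349 times that on day 0, a log2 fold change of -1.33 (SE 0.32) for day 8 against day 0, which is a description since this comparison chose the gene.

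The Fbln2 sum on day 4, 423 ± 143 CPM, against 1102 ± 17.1 CPM on day 0 (SD, n = 2 each), differed by a log2 fold change of -1.27 (SE 0.32) but was not called (limma adjusted p = 0.0718, 0.0431 to 0.271 over the alternatives). Of all loci, 7.90% were called in that comparison. The sum was called when its leading circle, that of exon 2, was left out (log2 fold change -2.25, limma adjusted p = 0.0431). The day 0 libraries of these tests were also those of the comparison that chose the gene, so this call is not independent of the choice. What remained was mainly the circle of exons 3 to 8, with 510.5 of 545 CPM on day 0 and all 79.4 CPM on day 4. On its own, that circle was not called in the fit of circRNAs (limma adjusted p = 0.125). For the whole sum, day 8 against day 4 gave a log2 fold change of -0.06 (SE 0.32, limma adjusted p = 0.973), from 385 ± 59.0 CPM on day 8. The sign of this log2 fold change turned when day 4 replicate 1 (0.30) or day 8 replicate 1 (0.11) was left out, and without the leading circle it was 1.22. On day 8, 229 ± 22.5 CPM of the sum came from the circles of exons 3 to 5 and 4 to 5. Both were in the table through day 8, on which they were high. This selection raises the day 8 sum, so the test cannot decide whether the sum differed between these days. By sum, Fbln2 ranked 200th of 2507 loci on day 0, 503rd on day 4 and 597th on day 8.

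The circles of Fbln2 differed in their course. The circle of exon 2, the large exon that holds the start codon, had 580 and 533 CPM on day 0, 415 and 272 CPM on day 4, and 98.0 and 213 CPM on day 8. Each later day lay below the earlier one in both libraries. Exons 3 to 8 formed a circle with 464 and 557 CPM on day 0 and 109 and 49.5 CPM on day 4, and neither day 8 library listed it above 0. That is 20 and 23 reads on day 0 and 5 and 2 reads on day 4.

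The 2 shorter circles over exons 3 to 5 were seen mainly on day 8. That of exons 3 to 5 had 69.6 and 0 CPM on day 0, a listed 0 in each day 4 library, and 196 and 118 CPM on day 8, from 8 and 5 reads. For exons 4 to 5, the 4 earlier libraries were listed at 0, and the day 8 libraries had 49.0 and 94.8 CPM, from 2 and 4 reads. At these read numbers a difference between a listed 0 and 2 reads may be as small as 1 read.

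**Figure D3:**
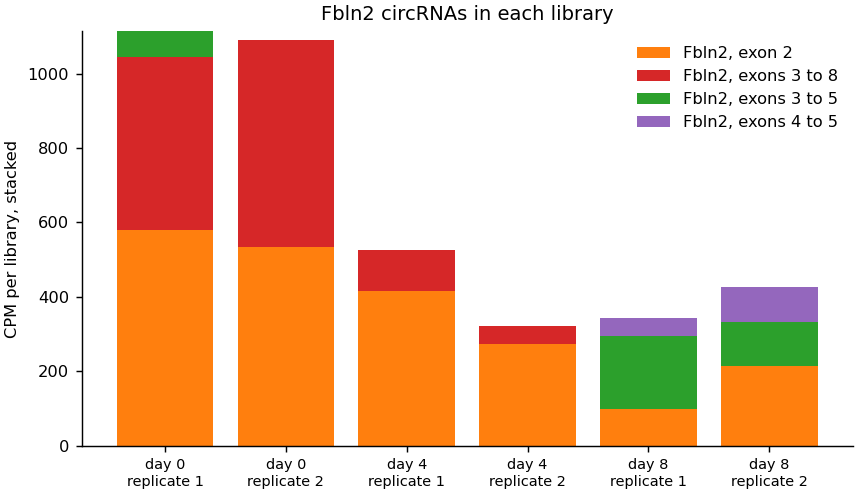
CPM of the 4 Fbln2 circRNAs stacked in each of the 6 libraries, with libraries by day and replicate on the horizontal axis. The bar for exons 3 to 8 shrinks after day 0 and is missing on day 8, where the bar for exons 4 to 5 appears and that for exons 3 to 5 is taller than in day 0 replicate 1, the earlier library that shows it, and the bar for exon 2 is lower at each later day.

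The tests for Fbln2 that the choice of the gene did not use share libraries with the one it used, and gave no call among its circles. For day 4 against day 0, 0 of 4 circles were called by limma, against 8.22% of all circRNAs. The circle of exons 4 to 5 was listed at 0 in every library of both days, so it could not be called. That of exons 3 to 5 had 3 reads in day 0 replicate 1 and was listed at 0 in the others. At an unadjusted p under 0.05 there was 1 of 4, the circle of exons 3 to 8, against 21.8% of all circRNAs. That circle averaged 79.4 ± 42.3 CPM on day 4, against 510.5 ± 65.7 CPM on day 0 (SD, n = 2 each), a log2 fold change of -2.15 (SE 0.66, limma adjusted p = 0.125). The circle of exon 2 gave -0.60 (SE 0.44, limma adjusted p = 0.480).

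For day 8 against day 4, the circles of exons 3 to 5 and 4 to 5 have no test. Day 8 was the only day on which both libraries showed them, so each was in the table through the day on which it was high. For the circle of exons 4 to 5, at 71.9 ± 32.4 CPM on day 8 (SD, n = 2) and listed at 0 in all 4 earlier libraries, this comparison also repeats the one that chose the gene. Neither of the other 2 circles was called, and neither had an unadjusted limma p under 0.05. The circle of exon 2 averaged 156 ± 81.5 CPM on day 8 and 344 ± 101 CPM on day 4 (SD, n = 2 each), a log2 fold change of -0.97 (SE 0.44, limma adjusted p = 0.285). For exons 3 to 8, listed at 0 on day 8, the limma adjusted p was 0.285 too. The median log2 fold change of the 4 Fbln2 circles was -0.63 for day 4 against day 0, beside 0 over all circRNAs, and 2 of the 4 values rest on days listed at 0.

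Sorted by their shared ends, the overlapping Fbln2 circles differed between day 8 and day 0 in the exon that closed them. Circles that began with exon 3 summed to 545 ± 16.4 CPM on day 0, 79.4 ± 42.3 CPM on day 4 and 157 ± 54.8 CPM on day 8 (SD, n = 2). Those closed by the end of exon 8 had 510.5 ± 65.7 CPM on day 0 and 79.4 ± 42.3 CPM on day 4 and were listed at 0 on day 8. Those closed by the end of exon 5 had 34.8 ± 49.2 CPM on day 0, were listed at 0 on day 4 and had 229 ± 22.5 CPM on day 8. The circles closed by exon 5 rested on 10 and 9 reads on day 8. Both were in the table through day 8, on which they were high, and day 8 against day 0 also chose the gene. This comparison is therefore a description and cannot decide whether the closing exon changed.

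The listed make-up of the Fbln2 sum differed between days, which is a description. The circles of exons 3 to 5 and 4 to 5 were in the table through day 8, on which they were high. This selection raises their shares on day 8 and lowers those of the other circles. The day 8 sums rested on 14 and 18 reads. The circle of exon 2 held 50.5% ± 2.26 of the Fbln2 sum on day 0, 81.9% ± 3.85 on day 4 and 39.3% ± 15.2 on day 8 (SD, n = 2). Exons 3 to 8 held 46.4% ± 6.68 on day 0, 18.1% ± 3.85 on day 4 and none on day 8. Exons 3 to 5 held 3.12% ± 4.42 on day 0, none on day 4 and 42.5% ± 20.8 on day 8, and exons 4 to 5 held 18.3% ± 5.61 on day 8 alone.

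**Figure D4:**
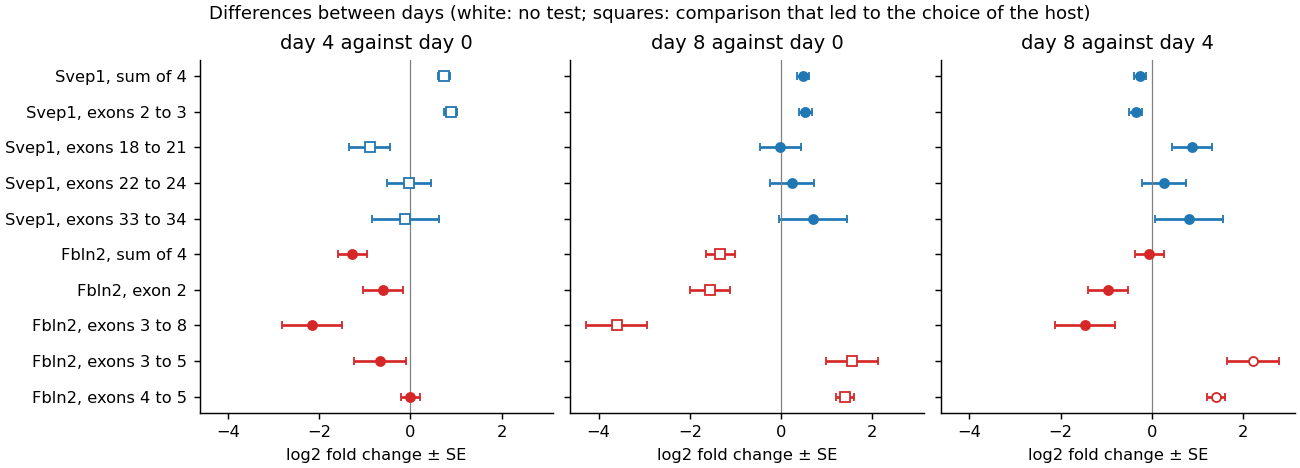
Log2 fold changes with their SE from the limma fit (horizontal axis) for the sums and circRNAs of Svep1 (blue) and Fbln2 (red), in 3 panels for day 4 against day 0, day 8 against day 0 and day 8 against day 4. White squares mark the comparison that led to the choice of the gene and white circles the circRNAs shown by both libraries of day 8 alone, neither with a test, and values of circRNAs listed at 0 on a day depend on the pseudocount.

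The loci whose course was most like that of each sum were sought among 1135 other loci that passed the read filter. Pearson's r was taken over the 6 libraries on the scale of the fit and is a description. Nearest to Svep1 was a locus of 3 circRNAs at chr12:3442474-3484608 on the plus strand (r = 0.983), with 297 ± 59.2 CPM on day 0, 672 ± 39.5 CPM on day 4 and 421 ± 7.01 CPM on day 8 (SD, n = 2). Next came mmu_circ_0010974 at chr4:100080418-100084745 on the plus strand (r = 0.982), at 252 ± 192, 2366 ± 471 and 1141 ± 228 CPM on the 3 days in the same order. The third was mmu_circ_0003999 at chr12:4664821-4673132 on the plus strand (r = 0.980). Nearest to Fbln2 were mmu_circ_0010676 at chr3:50221910-50242837 on the minus strand (r = 0.984), a locus of 3 circRNAs at chr9:72424846-72458195 on the plus strand (r = 0.982) and mmu_circ_0001561 at chr7:52171211-52171840 on the minus strand (r = 0.980). Of these, mmu_circ_0010676 was close to Fbln2 in level too, with 1104 ± 117 CPM on day 0, 321 ± 103 CPM on day 4 and 276 ± 113 CPM on day 8 (SD, n = 2). Without the scaling factors, 1 of the 3 loci named for Svep1 and 3 of the 3 named for Fbln2 were again among the nearest 3. The table gives no host genes for these loci.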

How the data were processed

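The authors deposited CPM per library, a value that sums to 1000000 over the 3869 listed circRNAs. Reads had been handled with HISAT2 2.2.0 and FastQC 0.11.9 on mm9, per the submitters' processing notes; for the circRNA caller, the sources used here give no name. All values were whole multiples of 1 step per library within a tolerance of 0.001 step (100%), with 2 steps as the smallest, so reads were inferred but no count test was run. CPM were divided by TMM factors (0.965 to 1.06), and log2(CPM + 43.7), the smallest non-zero CPM, was fitted for 3 days together with limma 3.58.1 (R 4.3.3, mean-variance trend) over the whole table; printed levels are unscaled. Adjusted p is Benjamini-Hochberg over all circRNAs or loci. The variance between libraries of a day was 2.35 to 3.15 times that of sampling noise (chi-square per degree of freedom), so none was a repeat deposit. Members, lists and loci were chosen with earlier results of these data known. Named in full were the sums, members that passed a filter of 10 or more reads in 2 or more libraries, and called members (none in the comparisons tested); the other 3 are given too. Members shown by both libraries of 1 day alone have no test against that day, though the Fbln2 sum includes them. Alternatives were other scalings, pseudocounts, a read filter, fits of 2 days, a replicate block, leaving out each library and leaving out the leading circRNA. Other matrix genes were not analysed here, since host names need an mm9 annotation.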

Additional observations from a re-analysis of the deposited data

How the results depend on the processing

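Of the log2 fold changes of the 2 sums, these changed direction or side of the threshold. Without its leading circle, the Svep1 sum turned to -0.34 for day 4 against day 0 and to 0.51 when day 8 was set against day 4, while the Fbln2 sum turned to 1.22 for day 8 against day 4, was called at -2.25 for day 4 against day 0 and moved to -1.02 for day 8 against day 0. Under the read filter, where fewer loci were tested, the Svep1 sum was called for day 8 against day 0 (0.48). Leaving out each library gave Fbln2 sums of -0.41 to 0.30 for day 8 against day 4 (0.30 with day 4 replicate 1 left out, 0.11 with day 8 replicate 1 left out) and Svep1 sums of 0.64 to 0.86 for day 4 against day 0. Among single circles, the direction turned without day 0 replicate 1 for Svep1 exons 33 to 34 at day 4 against day 0 (0.16) and exons 22 to 24 at day 8 against day 0 (-0.45), without day 0 replicate 2 for exons 22 to 24 at day 4 against day 0 (0.68) and exons 18 to 21 at day 8 against day 0 (0.16), without day 4 replicate 1 for exons 33 to 34 (0.086) and without day 4 replicate 2 for exons 22 to 24 (0.089), both at day 4 against day 0, and without day 8 replicate 1 for exons 18 to 21 at day 8 against day 0 (0.45). Over all libraries left out in turn, exons 22 to 24 ran from -0.73 to 0.68 and exons 33 to 34 from -0.37 to 0.16 (day 4 against day 0). When day 8 was set against day 0, exons 22 to 24 ran from -0.45 to 0.95 and exons 18 to 21 from -0.45 to 0.45. The cause was not tested. Counted over members above 0 in all 6 libraries, the circle of exon 2 is the only Fbln2 member left, so its share is 100% on each day by construction. The read filter left 1368 circRNAs to test, and the background counts fell with it. For circRNAs they went to 48 from 318 for day 4 against day 0 and to 90 from 479 for day 8 against day 0. When day 8 was set against day 4, they went to 14 from 373. For loci, in the same order of comparisons, they went to 64 from 198, 113 from 337 and 20 from 250. In a fit of 2 days, day 4 against day 0 gave 37 circRNAs and 99 loci, and without day 4 replicate 1 or 2, day 8 against day 4 gave 159 or 153 loci.

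Deviations from the day mean of libraries with the same replicate number correlated at -0.025 to -0.016, so no shared deviation was seen. Whether libraries with the same number came from the same animal or dish cannot be told from these values. A replicate block called 308, 458 and 352 circRNAs in the same order of comparisons, and left each member and sum on its side of the threshold (Svep1 sum, day 8 against day 0, limma adjusted p = 0.131). The planned count model was not run. Few reads limit all Fbln2 circles and the Svep1 circle of exons 33 to 34.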
